A study of Homo sapiens with 4 samples.

Results

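The neurexins, the neuroligins and some of their binding partners were represented by 7 genes: NRXN2, NRXN3, NLGN1, NLGN2, NLGN3, LRRTM4 and CNTNAP2. Every open chromatin region that overlapped the RefSeq GRCh38 span of one of these genes, extended by 10 kb on both sides, was taken, which gave 263 of the 125986 regions in the authors' deposited table. Of these regions 259 overlapped a gene span itself and 4 lay in the extensions. The regions came from ATAC-seq of A375 cells, an established human melanoma line, in which the transposase Tn5 cuts and tags accessible DNA. One group of 2 libraries was from cells given 1 mM octanoate, a medium-chain fatty acid, for 48 h, and the other group of 2 libraries was from cells given its vehicle, isopropanol. The comparison asked where accessibility differed after octanoate. The authors' deposited table holds for each region a mean of normalized reads across the 4 libraries (called the mean signal), the log2 fold change of octanoate over vehicle and its standard error (SE), with 0 columns per library, so the value of a single library cannot be shown. The labels do not say whether the libraries of a group came from separate cultures, so the p-values measure only the spread between these libraries, which may be technical.

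Neurexins are cell surface proteins of the presynaptic side that reach across the synaptic cleft to neuroligins, to LRRTM proteins and to other ligands on the postsynaptic side. Each neurexin gene makes long alpha and short beta forms from separate promoters. Neuroligin 1 is known mainly from excitatory synapses, neuroligin 2 from inhibitory synapses, and neuroligin 3 from both. CNTNAP2 encodes Caspr2, a large relative of the neurexins that clusters potassium channels beside the node of Ranvier. Several of these genes are among the longest of the genome, and melanocytes, from which melanoma arises, descend from the neural crest. Accessibility at such a gene is not a measure of its transcription.

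The upstream sequences of 4 transcription starts are shown because strong regions of this gene group lay over starts, and because NRXN3 had both a strongly and a weakly open start. RefSeq's promoter table (GRCh38.p14) listed 8 starts for 5 of the 7 genes, all on the plus strand (the others are NRXN2 and LRRTM4). Each sequence is the 250 bases before the start, 5′ to 3′, and capitals mark the GC box GGGCGG, searched on both strands, with overlapping matches merged. The sequences are CNTNAP2 (chr7:146116551-146116800), NLGN1 at its outermost start (chr3:173395702-173395951), NRXN3 at its outermost start (chr14:78170123-78170372) and NRXN3 at its internal start (chr14:79279130-79279379).
CNTNAP2: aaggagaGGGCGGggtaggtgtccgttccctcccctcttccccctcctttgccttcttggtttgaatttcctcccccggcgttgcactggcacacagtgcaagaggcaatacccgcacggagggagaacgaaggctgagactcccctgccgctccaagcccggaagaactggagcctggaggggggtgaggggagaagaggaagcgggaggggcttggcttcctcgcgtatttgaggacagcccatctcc
NLGN1: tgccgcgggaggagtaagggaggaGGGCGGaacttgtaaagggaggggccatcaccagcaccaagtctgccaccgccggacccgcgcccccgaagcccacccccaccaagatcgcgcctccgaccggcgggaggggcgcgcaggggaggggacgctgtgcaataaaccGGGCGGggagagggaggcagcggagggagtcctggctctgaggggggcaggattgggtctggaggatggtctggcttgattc
NRXN3 outermost: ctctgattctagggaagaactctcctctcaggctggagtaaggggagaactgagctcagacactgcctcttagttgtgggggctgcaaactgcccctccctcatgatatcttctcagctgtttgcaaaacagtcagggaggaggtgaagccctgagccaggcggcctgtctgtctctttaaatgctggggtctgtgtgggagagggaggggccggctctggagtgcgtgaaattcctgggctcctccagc
NRXN3 internal: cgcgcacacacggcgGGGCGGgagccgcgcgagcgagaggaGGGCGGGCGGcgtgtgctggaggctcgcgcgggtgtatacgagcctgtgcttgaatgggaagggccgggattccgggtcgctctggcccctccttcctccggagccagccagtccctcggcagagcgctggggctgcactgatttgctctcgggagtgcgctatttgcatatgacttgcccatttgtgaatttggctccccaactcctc

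The internal NRXN3 start had 24 CpG dinucleotides and 3 GC boxes in these 250 bases, whereas the outermost NRXN3 start had 3 CpG and 0 GC boxes. CNTNAP2 had 12 CpG and 1 GC box, and the outermost NLGN1 start had 19 CpG and 2 GC boxes. Among the windows not shown, the inner NLGN1 start had 17 CpG, NLGN3 16, the NRXN3 start at 78403719 5 and NLGN2 2. NLGN3 had only a weak region near its start (mean signal 15.6), and a relation between CpG and mean signal was not tested. Over the same window of 35116 listed starts the median was 11 CpG (quartiles 3 and 23), and 42.6% held a GC box. The AP-1 motif TGANTCA and the TATA box TATAAA were not among the letters of any of the 8 windows, and they were found in 6.57% and 10.7% of all windows, both strands searched. The broad E-box pattern CANGTG, with N any base, was found once upstream of the inner NLGN1 start and once upstream of NLGN3. The matching letters were CACTTG and CACCTG, neither of them CACGTG, and they are not read as MITF sites. A match on either strand was found in 36.5% of all windows, where CACGTG matches on both. The ETS motif CCGGAAG was found once upstream of CNTNAP2 and in 8.52% of all windows. These matches describe the letters only.

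The authors' adjusted p-value covered the 11185 regions with a mean signal of at least 63.8, called tested regions, a level of 499 to 617 reads in all 4 libraries combined. Fold changes over the whole table lay mostly above 0, with a median log2 fold change of 0.23 over all nuclear regions and 0.19 over tested regions. Among the markers checked, all 8 melanoma genes and all 6 neuronal genes had a region within 1 kb of their spans, as did 3 of 3 fibroblast genes, 1 of 3 keratinocyte genes and the immune genes PTPRC and CD3E. At listed starts, the strongest region had a mean signal of 168 at MITF, 139 at EDNRB and 30.0 at DCT. At neuronal genes it was 174 at SYT1, 38.3 at DLG4, 29.7 at SYN1 and 11.4 at RBFOX3, and at PDGFRA 130. None was listed at the starts of MLANA, TYR, KRT5 and PTPRC. Among genes with a listed start, 3 of 5 melanoma genes and 4 of 4 neuronal genes thus had a region there. The strongest region within 1 kb of each span ran from 11.1 (TYR) to 168 (MITF) over the melanoma genes and from 12.4 (RBFOX3) to 174 (SYT1) over the neuronal genes. It reached 130 at the fibroblast gene PDGFRA and 93.3 at the immune gene PTPRC. No region was listed near the keratin genes KRT5 and KRT1. Markers of every cell type checked thus had some open regions, and the part of any other cell type in the results was not tested.

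Most regions of the 7 genes were weak. Only 10 of the 263 (3.80%) were tested, against 8.88% of all regions, and they belonged to CNTNAP2 (5), NRXN3 (3), NLGN1 (1) and NLGN2 (1). None of the 10 had an adjusted p under 0.05 in the authors' deposited table (DESeq2, Benjamini-Hochberg), where 1.02% of all tested regions passed, each of them with a log2 fold change above 0. At an adjusted p under 0.1 there was 1 region, in CNTNAP2, against 2.96% of all tested regions. At an unadjusted p under 0.05 there were 4 of 10 (40%) with a log2 fold change above 0, 2 in CNTNAP2 and 2 in NRXN3, against 14.8% of all tested regions. The number with a log2 fold change below 0 at that level was 0, against 0.107% of all tested regions. These 4 regions lie in 2 genes, regions of a gene are not independent, and the difference between the shares was not tested.

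Over all 263 regions the median log2 fold change was 0.27, with quartiles of -0.014 and 0.59, and 195 regions (74.1%) lay above 0. The same median was 0.23 over all nuclear regions, where 72.1% lay above 0. The 7 gene medians ran from 0.53 in NRXN2 through 0.39 in NRXN3, 0.35 in NLGN1, 0.25 in CNTNAP2, 0.12 in NLGN2 and 0.088 in NLGN3 to 0.066 in LRRTM4. Once the median of all nuclear regions was subtracted, the last 3 came out below 0 and CNTNAP2 was at 0.018, while NRXN2, NRXN3 and NLGN1 were at 0.30, 0.16 and 0.12. The order changed with the regions taken. In regions of at least median signal NLGN1 had a median of 0.21, and LRRTM4 had one of 0.25 from only 2 regions, at 0.55 and -0.055. NRXN2 had a median of 0.25 when its span was extended by 50 kb. The quartile ranges of NRXN3, NLGN1 and CNTNAP2 overlapped, and NRXN2, NLGN2 and NLGN3 had at most 5 regions each.

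**Figure D1:**
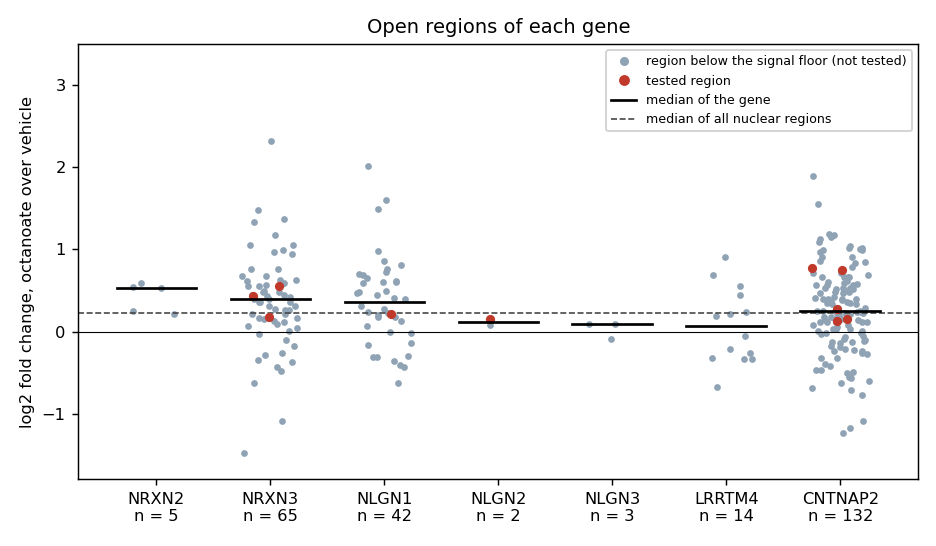
Each point is 1 region of the named gene, with the log2 fold change of octanoate over vehicle on the vertical axis. Red points are tested regions and grey points are regions under the signal floor, black bars are gene medians, and the dashed line is the median of all nuclear regions (0.23). The 10 tested regions lay between 0.13 and 0.77, all above 0 (as were 85.7% of all tested regions), inside a wider scatter of weak regions.

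Of the neurexins, NRXN3 (gene ID 9369, chromosome 14, 78170373 to 79868291) had 65 regions, of which 53 had a log2 fold change above 0 and 12 below. The strongest lay over the internal start shown above (79278745 to 79280092), with a mean signal of 128, or 95.3 per kb, and 1004 to 1243 reads over the 4 libraries. The authors' deposited table gave it a log2 fold change of 0.17 (SE 0.18, adjusted p 0.697), and relative to the tested median it was -0.016. By contrast the outermost start lay in a region with a mean signal of 6.87, made of 62 reads in all, and a log2 fold change of 0.31 with a standard error of 0.81. The third listed start had no region within 1 kb. The internal start was thus the one start of NRXN3 where the table resolved a strong region, and its fold change was close to the tested median.

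The other 2 tested regions of NRXN3 lay away from listed starts. The first (79045128 to 79045927) was 29.6 kb from the start of the antisense gene NRXN3-AS1, with a mean signal of 82.9. Its deposited mean and fold change imply group means of 67.1 normalized reads for vehicle and 98.7 for octanoate, if the groups are taken as plain means of 2 libraries. For it the authors' deposited table lists a log2 fold change of 0.56 (SE 0.23, unadjusted p 0.0173, adjusted p 0.217). The second (79483164 to 79484496), with a mean signal of 112, had implied means of 95.4 and 129. The second had, by the authors' deposited table, a log2 fold change of 0.43 (SE 0.20, unadjusted p 0.0299, adjusted p 0.274). Neither passed the adjusted threshold. The regions next to them were weak (mean signals of 4.08 to 33.7), with log2 fold changes from -0.48 to 0.26, all within their own standard errors of 0. The highest and lowest values of the gene came from weak regions: 2.32 with a standard error of 1.54 from 26 reads, and -1.47 with a standard error of 1.19 from 36 reads.

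NRXN2 (gene ID 9379, chromosome 11, 64606174 to 64723197) had 5 regions, all under the signal floor, with mean signals of 5.57 to 27.1. The strongest (64723056 to 64723756) covered the upper end of the span, which is the 5′ end of this minus-strand gene. It had implied means of 22.1 for vehicle and 32.1 for octanoate. The log2 fold change listed in the authors' deposited table was 0.54 (SE 0.40, unadjusted p 0.182). All 5 log2 fold changes lay above 0, from 0.21 to 0.59, and the smallest standard error was 0.40, so a 95% interval of each one included 0. Of the neurexin genes, NRXN3 thus had 3 regions above the signal floor and NRXN2 had none.

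NLGN1 (gene ID 22871, chromosome 3, 173395952 to 174294372) had the strongest region of the group. It spanned 4382 bp (173395060 to 173399441), covered both listed starts of the gene and had a mean signal of 281, or 64.2 per kb, above 99.8% of all regions. The implied means were 261 for vehicle and 302 for octanoate. The authors' deposited table gave it a log2 fold change of 0.21 (SE 0.13, adjusted p 0.459), with a 95% interval of -0.051 to 0.47, the narrowest interval among the 263 regions. Relative to the tested median the value was 0.021. The other 41 regions of NLGN1 were under the signal floor. The strongest of them (mean signal 49.8, overlapping the antisense gene NLGN1-AS1) had a log2 fold change of -0.0052 with a standard error of 0.30.

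In NLGN1, 3 weak regions had an unadjusted p under 0.05 with a log2 fold change above 0 in the authors' deposited table. Their log2 fold changes there were 2.02 (SE 0.82, p 0.0134, mean signal 7.77), 1.60 (SE 0.65, p 0.0139, mean signal 11.3) and 0.72 (SE 0.36, p 0.0474, mean signal 34.1). The first of these rested on 72 reads over the 4 libraries, with implied means of 3.07 and 12.5. With 1 such region of NRXN3 (mean signal 11.8, log2 fold change 1.34, p 0.0352) there were 4 among the 253 member regions under the signal floor, or 1.58%, against 2.48% with a log2 fold change above 0 among all nuclear regions under it. The authors gave these regions no adjusted test, and the share did not exceed that of weak regions in general.

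NLGN2 (gene ID 57555, chromosome 17, 7404653 to 7419860) lies among closely packed genes, and both of its regions overlapped others. The tested one (7403695 to 7405189, mean signal 87.0) covered the lower end of the NLGN2 span, which is the 5′ end of this plus-strand gene. It also covered TMEM256 and the listed start of TMEM256-PLSCR3, so its signal cannot be assigned to 1 gene. Its implied means were 82.2 and 91.7. The log2 fold change was 0.16 in the authors' deposited table (SE 0.23, adjusted p 0.789), and -0.029 relative to the tested median. The second region lay over the start of PLSCR3, with a log2 fold change of 0.082 and a standard error of 0.34. The listed NLGN2 start itself (7407845) was 2656 bp from the nearest region.

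NLGN3 (gene ID 54413, chromosome X, 71144841 to 71175307) had 3 regions, none of them tested. The only one inside its span (71145829 to 71146478) began 988 bp from the listed start and had a mean signal of 15.6. For it the authors' deposited table lists a log2 fold change of -0.096 (SE 0.53). The remaining pair lay downstream of the gene, with mean signals of 44.2 and 7.70 and log2 fold changes of 0.088 and 0.090. Across the neuroligins, a strong region at the gene's own listed start was therefore listed for NLGN1 alone of these 3 genes. The tested region of NLGN2 covered the 5′ end of its span and lay 2656 bp from its listed start.

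LRRTM4 (gene ID 80059, chromosome 2, 76747685 to 77522376) encodes a postsynaptic leucine-rich repeat protein that binds neurexins and heparan sulfate. It had 14 regions over 775 kb, or 1.76 per 100 kb, and all were weak, with mean signals of 3.81 to 18.3. Their log2 fold changes were evenly split, 7 above 0 and 7 below, between -0.67 and 0.90. The standard errors were 0.48 to 1.16, larger than most of these values. The region at the upper end of the span, the 5′ end of this minus-strand gene, had a mean signal of 7.75 from 70 reads and a log2 fold change of 0.19 with a standard error of 0.76. The smallest unadjusted p in LRRTM4 was 0.282 in the authors' deposited table, at a region with a log2 fold change of 0.69 (SE 0.64). No difference was detected in LRRTM4, where at its median standard error a log2 fold change of 1.52 would have been needed for an unadjusted p of 0.05.

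CNTNAP2 (gene ID 26047, chromosome 7, 146116801 to 148420998) held 132 of the 263 regions, spread over 2304 kb. Of these 95 had a log2 fold change above 0 and 37 below. Its start, shown above, lay in its strongest region (146115523 to 146117210, mean signal 170, or 101 per kb). The implied means there were 161 for vehicle and 179 for octanoate. The start region's log2 fold change was 0.15 in the authors' deposited table (SE 0.16, adjusted p 0.702), and -0.039 relative to the tested median. A second region 29.9 kb inside the gene (146146695 to 146147748, mean signal 94.7) was similar, with a log2 fold change of 0.13 and a standard error of 0.22.

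The largest fold changes among tested regions of the 7 genes came from a pair deep within CNTNAP2, 313 kb apart. The region at 147510785 to 147511780, 1394 kb from the CNTNAP2 start, had a mean signal of 92.8, from 726 to 897 reads, with implied means of 69.2 for vehicle and 116 for octanoate. The log2 fold change listed in the authors' deposited table was 0.75 (SE 0.22, unadjusted p 0.000565), with a 95% interval of 0.32 to 1.18. The adjusted p was 0.0508, just above the threshold. The region at 147196612 to 147197659, 1080 kb from the start, had a mean signal of 68.0 with implied means of 50.3 and 85.7. By the authors' deposited table this second region had a log2 fold change of 0.77 (SE 0.26, unadjusted p 0.0036, adjusted p 0.109). The nearest listed start of any gene to both was that of LOC107986721, at 49.6 kb and 364 kb. Neither region overlapped another annotated gene, and whether they are intronic or exonic was not analysed here.

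Relative to the tested median, the log2 fold changes of this CNTNAP2 pair were 0.56 and 0.58, with unadjusted p-values of 0.00961 and 0.0276. They were the 2 of 10 tested regions (20%) with an unadjusted p under 0.05 and a value above 0 after this centring, against 3.16% of all tested regions. With a value below 0 there were 0 of 10, against 1.01% of all tested regions. The smallest adjusted p of the group after centring was 0.842, so neither passed. Whether the pair differed from the CNTNAP2 start region, which had a 95% interval of -0.17 to 0.46, was not tested. Their neighbours were too weak to show whether a wider stretch differed. The closest, 0.505 kb to the left of the region at 147510785, had a mean signal of 5.78 and a log2 fold change of 0.71 with a standard error of 0.91. The other 3 neighbours of the pair, 7.35 to 38.3 kb away with mean signals of 6.97 to 25.8, had log2 fold changes of 0.24, 0.12 and -0.18, each within its own standard error of 0. The fifth tested region of CNTNAP2 (147833181 to 147834759, mean signal 112) had a log2 fold change of 0.27 with a standard error of 0.21.

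**Figure D2:**
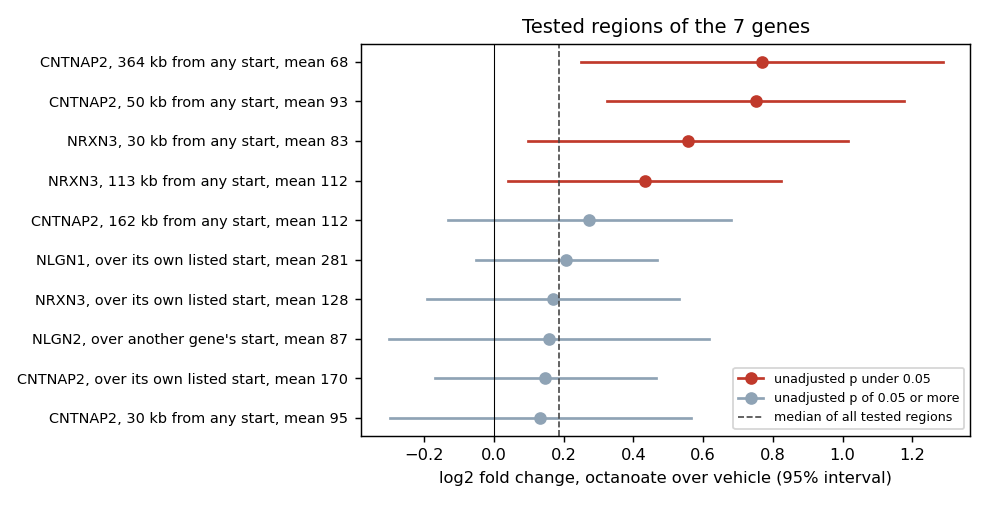
The 10 tested regions of the 7 genes, with the log2 fold change of octanoate over vehicle and its 95% interval (1.96 standard errors) on the horizontal axis, and the distance to the nearest listed start and the mean signal in each label. The 4 regions over a listed start lay between 0.15 and 0.21, near the median of all tested regions (dashed, 0.19), and the 4 red ones with an unadjusted p under 0.05 were at least 29.6 kb from any start.

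By position, the 4 tested regions over a listed start had log2 fold changes of 0.15 to 0.21, and their standard errors were 0.13 to 0.23. The 6 tested regions away from starts had values of 0.13 to 0.77. The 4 with an unadjusted p under 0.05 were all among these 6, at 29.6 to 364 kb from any listed start, and had values of 0.43 to 0.77. This is a description of 10 regions, with no test of position.

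Along the 3 longest genes the fold changes were mixed throughout. Each gene span was divided into 4 equal stretches and regions were placed by their midpoints, which left out the CNTNAP2 start region and, in NRXN3, the region of the outermost start and 1 in the extension, since their midpoints lie before the span. Median log2 fold changes from the first stretch to the last were 0.35, 0.37, 0.24 and 0.17 in CNTNAP2. In NRXN3 they were 0.63, 0.35, 0.46 and 0.21, where 8 weak regions were placed in the first stretch. In NLGN1 they were 0.13, 0.59, 0.42 and 0.24, and the first stretch of NLGN1 held its strong start region. The order of stretches differed between the genes, and in each gene single regions lay both above and below 0 in nearly every stretch, the first of NRXN3 being the exception.

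**Figure D3:**
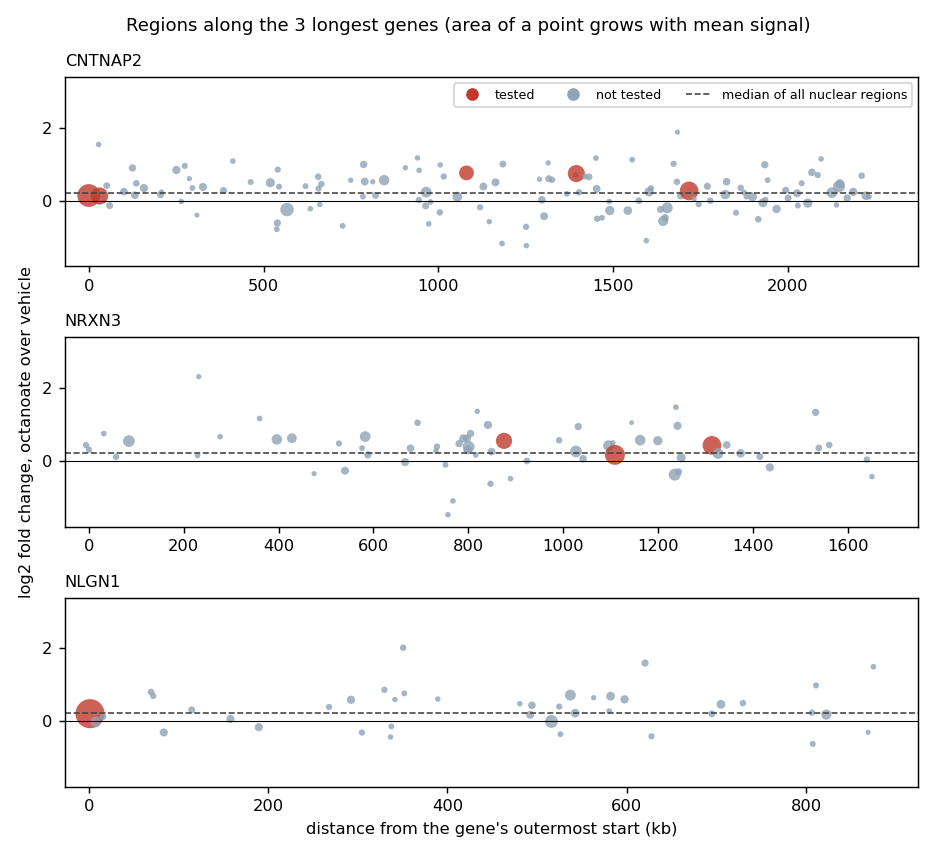
Regions along CNTNAP2, NRXN3 and NLGN1, with the distance from the outermost start in kb on the horizontal axis and the log2 fold change of octanoate over vehicle on the vertical axis. The area of a point grows with mean signal, red points are tested regions and the dashed line is the median of all nuclear regions (0.23). The largest points of CNTNAP2 and NLGN1 sit at the start with values of 0.15 and 0.21, and the red CNTNAP2 pair near 1080 and 1394 kb sits at 0.77 and 0.75.

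Depth limited what could be seen. The median mean signal of the 263 regions was 8.23, which stood for 65 to 79 reads over the 4 libraries. In the 128 regions with a mean under 8, whole reads could be recovered in all cases, with a total of 10 to 72 reads and a median of 45. At the median standard error of the 263 regions, 0.75, a log2 fold change of 1.46 would have been needed for an unadjusted p of 0.05, against 0.42 in the 10 tested regions. The spread of fold changes narrowed with signal, from an SD of 0.67 in regions with a mean under 8 to 0.25 in the tested ones. All nuclear regions gave 0.71 and 0.20. A log2 fold change beyond 1 in either direction occurred in 22 of the 128 regions with a mean under 8, in 4 of the 68 with a mean of 8 to 16 and in 0 regions above that. Over all nuclear regions the counts were 6982 of 40448 under 8, 1916 of 35488 from 8 to 16 and 627 of 24158 from 16 to 32.

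**Figure D4:**
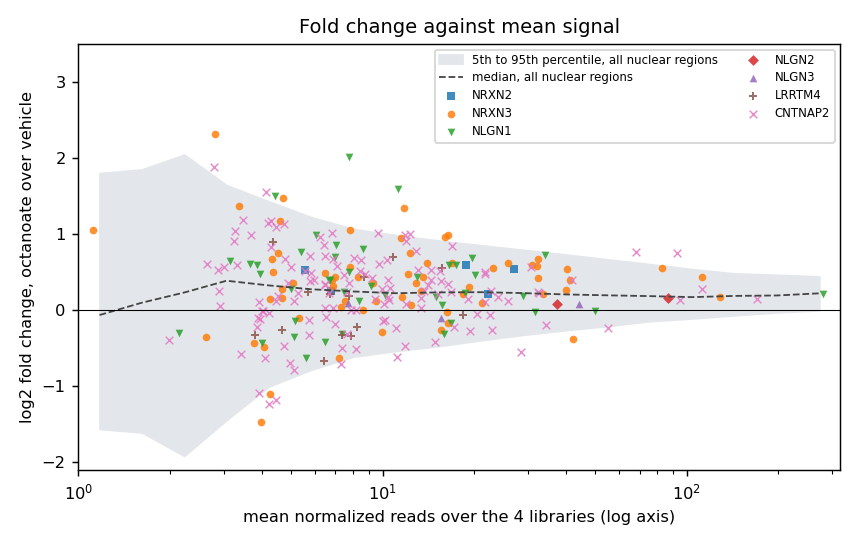
Log2 fold change of octanoate over vehicle (vertical axis) against mean normalized reads over the 4 libraries (log axis) for the 263 regions, marked by gene. The shaded band is the 5th to 95th percentile and the dashed line the median of all nuclear regions at that signal. The scatter narrows from left to right, with an SD of 0.67 under a mean of 8 and 0.25 in tested regions, 14 of the 263 regions (5.32%) lie above the band and 9 (3.42%) below it, and of these 14 only the CNTNAP2 pair at 0.75 and 0.77 was tested.

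Other genes of trans-synaptic adhesion were taken from a list of 56 partners, all of which had at least 1 region, 749 in all. Of these 47 regions in 30 genes were tested, and 0 had an adjusted p under 0.05 or under 0.1 in the authors' deposited table. At an unadjusted p under 0.05 there were 2 with a log2 fold change above 0 (4.26%, against the 14.8% of all tested regions) and 0 below. The median log2 fold change of the 47 was 0.12, and 34 of them (72.3%) lay above 0, against 85.7% of all tested regions. After centring on the tested median, 0 of the 47 had an unadjusted p under 0.05 with a value above 0 and 2 (4.26%) with a value below, against 1.01% of all tested regions. These lay in the calsyntenin gene CLSTN2 (centred log2 fold change -0.52, p 0.012) and the latrophilin gene ADGRL2 (-0.36, p 0.0139), named after their values were seen, and the smallest adjusted p after centring was 0.931. By role, counts with an unadjusted p under 0.05 as deposited were 0 of 16 for other surface and secreted proteins such as cerebellins, latrophilins and calsyntenins, 0 of 5 for presynaptic scaffolds such as CASK, and 0 of 1 each for NLGN4X and the Caspr and contactin genes. They were 1 of 14 for postsynaptic scaffolds and 1 of 10 for the LAR-type receptor phosphatases with their ligands. The remaining LRRTM genes had 9 regions and none tested.

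The partner genes with the smallest p were DLG2, IL1RAP, ADGRL1, GRID1 and SHANK1. A region of DLG2, a postsynaptic scaffold (chromosome 11, 85114507 to 85115497), had a mean signal of 71.9 and implied means of 59.3 and 84.6. The authors' deposited table gave it a log2 fold change of 0.51 (SE 0.25, adjusted p 0.305). IL1RAP, a ligand of the phosphatase PTPRD, had a region on chromosome 3 (190585598 to 190587153) for which the authors' deposited table gives a log2 fold change of 0.48 (SE 0.25, adjusted p 0.334). The regions of the latrophilin gene ADGRL1, the delta glutamate receptor gene GRID1 and the scaffold gene SHANK1 had values of 0.35, 0.30 and 0.36 in the authors' deposited table, with adjusted p-values of 0.353, 0.427 and 0.427. The values of all 47 tested partner regions thus stayed below those of the CNTNAP2 pair, a comparison that was not tested.

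**Figure D5:**
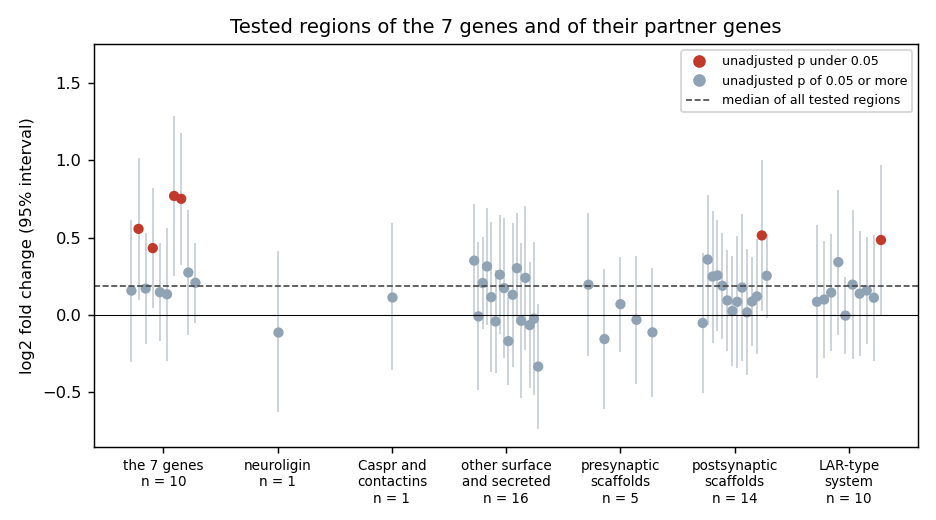
Tested regions of the 7 genes and of the partner genes by role, with the log2 fold change of octanoate over vehicle on the vertical axis. Each point is 1 region, bars are 95% intervals, red marks an unadjusted p under 0.05 and the dashed line is the median of all tested regions (0.19). There are 4 red points among the 10 regions of the 7 genes and 2 among the 47 partner regions, and no region had an adjusted p under 0.05.

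Because 4 of the 7 genes are very long, they were also set beside the 310 other protein-coding genes of at least 500 kb. Those genes had a median of 3.84 regions per 100 kb, with quartiles of 2.95 and 5.15. CNTNAP2 had 5.68, NLGN1 4.57, NRXN3 3.78 and LRRTM4 1.76 regions per 100 kb. There were 61 long genes with a higher density than CNTNAP2 and 28 with a lower one than LRRTM4. Among the 298 long genes with at least 10 regions, median log2 fold changes ran from -0.19 to 0.74, with quartiles of 0.13 and 0.34. NRXN3, at 0.39, was exceeded by 52 of them, and LRRTM4, at 0.066, lay above 36. Both the densities and the medians of the 4 genes thus lay within the range of other long genes.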

How the data were processed

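ATAC-seq libraries of A375 cells, 2 with vehicle and 2 with 1 mM octanoate, were grouped by their titles. Per the submitters' processing notes, Trim Galore, cutadapt, FastQC, Bowtie2, Picard, MACS2, featureCounts, DESeq2 and bedtools 2.29.1 were used on the build hg38; their settings and whether reads were moved to allow for Tn5 insertion are not given in the sources used here. Per the file headers, the deposited signal is the mean normalized read count of all libraries, log2 values deposited are fold changes (octanoate over vehicle) and their standard errors, the authors' score is a Wald statistic, and each deposited p-value comes with an adjusted one. The authors' adjusted p equalled Benjamini-Hochberg adjustment over the 11185 regions at or above a mean of 63.8 and was listed as 1 elsewhere, which was read as not tested.

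Regions were assigned to genes with the RefSeq GRCh38.p14 table. Implied group means, 95% intervals (1.96 standard errors, deposited values) and values relative to the tested median were computed here. The value of 1 read in each library (0.413, 0.431, 0.434 and 0.512 normalized reads) was recovered from recurring differences between low means; no step was assigned to a sample. Adjustment, centring and gene assignment were tested on simulated data. Python 3.11.15 with pandas 2.3.3 and scipy 1.17.1 was used.

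Members and lists were chosen with earlier results of these data known. Named were all 7 members, with their strongest, smallest-p, start and tested regions, and partner genes past the threshold or otherwise the 5 with the smallest p. The alternatives were other thresholds, adjustment over all regions, centring, and gene spans extended by 0 or 50 kb. For 1 immune marker of the planned list the result is not reported here. Likeness of patterns over samples was not computed, since 1 contrast gives none.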

Additional observations from a re-analysis of the deposited data

How the results depend on the processing

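The count of member regions past the threshold was 0 with adjustment over all regions, with centring on the tested median and with spans extended by 0 or 50 kb. It was 1 at an adjusted p under 0.1 and 4 at an unadjusted p under 0.05, both looser by construction. The partner count was 0 at an adjusted p under 0.1, with adjustment over all regions and with centring, and 2 at an unadjusted p under 0.05; the other spans were run for members only. The median of 0.27 became 0.045 after the median of all nuclear regions was subtracted, and lay between 0.24 and 0.31 when each gene was left out in turn (lowest without NRXN3, highest without CNTNAP2). Centring on that median gave -0.11 for NLGN2, -0.14 for NLGN3 and -0.16 for LRRTM4, since it exceeds their medians. In regions of at least median signal the medians were -0.0042 for NLGN3, 0.25 for LRRTM4 (from 0.066, with only 2 regions left) and 0.21 for NLGN1 (from 0.35), and with no extension NLGN3 was -0.096, in each case from fewer regions. Centring on the tested median gave -0.016 (NRXN3 internal start), -0.029 (NLGN2), and -0.039 and -0.053 (CNTNAP2 start and the region 29.9 kb from it). With an extension of 50 kb the median of NRXN2 was 0.25 in place of 0.53. No paired analysis was possible because only values pooled over the libraries were used; leaving out a replicate and other scalings could not be run for the same reason.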
